A study of Saccharomyces cerevisiae with 25 samples.

Results

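The comparison described here set the eS7A-WT strain against W303 after 4 h of tunicamycin (Tm), using 6 of the 25 libraries of the series, 2 of ribosome profiling and 2 of RNA-seq from eS7A-WT and 1 of each from W303. The libraries were taken by their labels of strain, time and treatment. The comparison, the gene lists and the named genes were chosen with earlier results of these data known. W303 (W303-1a, MATa ade2 his3 leu2 trp1 ura3 can1) is a common laboratory wild type. In eS7A-WT, made in the same background, the chromosomal RPS7A was replaced by HisMX6 and RPS7B by natNT2, and HA-tagged eS7A was expressed from its own promoter on a centromeric plasmid marked with LEU2. Tm was used at 1 µg/mL in both strains, which were collected at 4 h, and the untreated cells, 2 W303 libraries per assay and 2 profiling and 1 RNA-seq library from eS7A-WT, were used beside them. Another strain, eS7A-4KR, carries eS7A with 4 lysines replaced. Its libraries and those of W303 at 1 and 2 h entered the filter of genes, the scaling factors and the estimate of the spread. They were not a side of any difference given here. The strain labels also separate the library sets, so strain and library set cannot be told apart, and the sources used here do not state the medium or whether eS7A-WT was a single clone. The study describes the replicates as biological and independent of each other.

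Tm blocks the first step of N-linked glycosylation, so that misfolded glycoproteins collect in the endoplasmic reticulum (ER). In yeast the membrane kinase and RNase Ire1 answers by splicing HAC1 mRNA, and the Hac1 transcription factor induces ER chaperones, the machinery of ER-associated degradation and lipid synthesis genes, a programme called the unfolded protein response (UPR), while genes for ribosome production are repressed. eS7 is a protein of the small ribosomal subunit encoded by the paralogs RPS7A and RPS7B, and it is monoubiquitinated by the E3 ligase Not4. Ribosome profiling sequences the mRNA fragments covered by ribosomes (footprints), and footprints relative to mRNA give the translation efficiency (TE) of a gene.

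The 3 profiling libraries at 4 h held 3423907 to 10611458 counted footprints, with the lowest depth of all 13 profiling libraries in W303 at 4 h, and the 3 RNA-seq libraries held 28309641 to 43144460 counted reads. The eS7A-WT replicates had a Spearman correlation of 0.998 in RNA-seq and 0.993 in profiling, and they differed by more than sampling noise. All levels are in cpm, the counts of a gene scaled to a common library total with TMM factors within each assay, to be compared within a gene and not between genes. Differences are eS7A-WT minus W303 on the log2 scale with their standard error. A difference was called when the Benjamini-Hochberg adjusted p of the quasi-likelihood test in edgeR was below 0.01 among 5526 genes tested. All adjusted p-values below come from that test. W303 had a single library per assay at 4 h, which was assumed to vary like the other groups. In bulk libraries fewer cells with a transcript and less of it per cell cannot be told apart.

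The marker genes followed the strain labels. RPS7B (YNL096C, chromosome XIV, 443398 to 444315 in the RefSeq annotation of assembly R64) gave 16.9 cpm of mRNA in W303 against 0.994 and 1.27 cpm in the eS7A-WT libraries, a difference of −3.88 ± 0.26 (adjusted p = 2.8e-12). RPS7A (YOR096W, chromosome XV, 505794 to 506767) gave 63.1 cpm in W303 and 294 and 293 cpm in eS7A-WT. The plasmid-borne gene was thus 4.65-fold higher at 4 h (2.22 ± 0.26, adjusted p = 3.7e-06) in cells that had no other eS7 gene. The gap was smaller at 0 h, with 1620 and 1856 cpm in W303 and 2558 cpm in eS7A-WT. Other ribosomal protein genes were also higher in eS7A-WT at 4 h, with median differences of 0.98 for the small and 0.96 for the large subunit. LEU2 (YCL018W, chromosome III, 91324 to 92418), the plasmid marker, gave 47.4 cpm in W303 and 355 and 379 cpm in eS7A-WT (2.95 ± 0.20, adjusted p = 1.9e-10). ADE2, HIS3, TRP1, URA3 and CAN1, the other marker loci of W303, differed by at most 0.30 at 4 h, and none was called. RPS7B is deleted in eS7A-WT, so reads placed there in that strain do not measure its expression. Whether these were misplaced reads of the paralog RPS7A was not tested. Of the mating-type markers, the 7 fixed for MATa cells (MFA1, MFA2, STE2, STE6, BAR1, AGA2 and ASG7) were detected in all 3 RNA-seq libraries. Of the 4 fixed for MATalpha cells, MF(ALPHA)1 had 19 to 20 and MF(ALPHA)2 0 to 6 RNA-seq counts, whereas STE3 had 397 to 510 and SAG1 614 to 1084, so those last 2 were not at 0 in either strain.

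At 4 h the strains shared the direction of most responses. The mRNA change from 0 to 4 h was called for 3646 genes in W303 (66.0% of genes tested, 33.6% up and 32.4% down) and for 3427 in eS7A-WT (62.0%, 31.2% up and 30.8% down). Of these, 3036 were called in both strains in the same direction, which is 83.3% of the W303 set and 88.6% of the eS7A-WT set, and 15 were called in opposite directions. Over the 5526 genes the changes had a Pearson correlation of 0.96, a description across genes, which are not independent replicates. The called changes were evenly split, 50.9% upward in W303 and 50.3% in eS7A-WT, but 77.7% and 75.5% upward without TMM scaling, when the median change of all genes was 0.76 and 0.66 instead of 0.03 and 0.03. The changes were wider in W303, with an SD over genes of 1.61 against 1.39 in eS7A-WT. When the treated cells were compared directly, 534 genes differed in mRNA (9.66%), 284 of them higher (5.14%) and 250 lower (4.52%) in eS7A-WT, and 174 of the 534 by at least 2-fold. For 4849 genes (87.7%) the 95% interval of the mRNA difference lay within 2-fold in either direction. Footprints differed for 441 genes (7.98%), 278 higher (5.03%) and 163 lower (2.95%). All 221 genes called in both assays had the same direction in both.

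The counts depended on the eS7A-WT libraries and on the scaling. Libraries were left out singly, so that "without either" below means with the first or the other of a pair left out, never both. Without RNA-seq replicate 1 or 2 of eS7A-WT at 4 h the 534 genes became 262 or 245, and without profiling replicate 2 the 441 became 203. The share of mRNA calls that were higher in eS7A-WT was 53.2%, but 66.7% with DESeq2, and without TMM scaling the share for footprints moved from 63.0% to 49.0%, while the median difference of all genes moved from −0.03 to −0.22 in mRNA and from 0.02 to −0.40 in footprints.

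**Figure D1:**
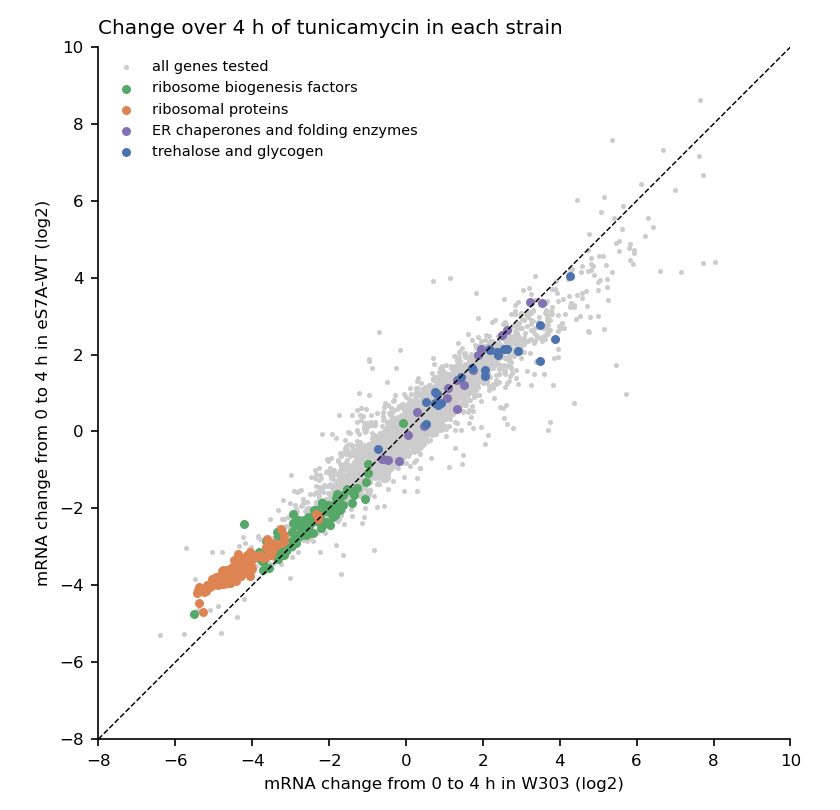
Change in mRNA from 0 to 4 h of Tm in W303 (x axis, log2) against that in eS7A-WT (y axis, log2), with 1 point per gene tested and 4 gene lists in colour; the dashed line marks equal changes. Ribosomal protein genes, with median changes near −4.4 in W303 and −3.7 in eS7A-WT, lie above the line, while ribosome biogenesis factors and ER chaperones lie close to it.

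Most genes of the ER stress programme were not called between the treated strains. Among 20 ER chaperones and folding enzymes, 13 rose and 3 fell over 4 h in W303 and 14 rose and 4 fell in eS7A-WT, with median changes of 1.32 and 1.17, and 18 of the 20 intervals of the direct difference lay within 2-fold. KAR2, the ER Hsp70 (BiP) and main Hac1 target, stood at 6111 cpm of mRNA in W303 and at 3701 and 3907 cpm in eS7A-WT. Both eS7A-WT libraries were below W303, but the difference of −0.68 ± 0.27 did not pass (adjusted p = 0.066), a difference of −0.70 was measured at 0 h (adjusted p = 0.069), and the rise over 4 h was 2.62 in W303 and 2.63 in eS7A-WT. PDI1, the protein disulphide isomerase, stood at 2886 cpm against 3580.0 and 3902 cpm (0.37 ± 0.26, adjusted p = 0.34). Both eS7A-WT libraries lay below W303 in mRNA for 14 of the 20 and above for 4, against 49.1% and 40.7% of all genes. In footprints they lay below for 8 and above for 8. Of the 20, 4 were called lower in mRNA in eS7A-WT and none higher, where 4.52% and 5.14% of all genes were called. Apart from EPS1 they act in trimming of glucose from N-glycans. They were ROT2 (−0.77 ± 0.13, adjusted p = 0.00011) and GTB1 (−0.53 ± 0.12, adjusted p = 0.0017), the subunits of glucosidase II, CWH41 (−0.51 ± 0.12, adjusted p = 0.0025), glucosidase I, and the disulphide isomerase EPS1 (−0.42 ± 0.11, adjusted p = 0.0077). Without either eS7A-WT RNA-seq library at 4 h only ROT2 of the 4 was called, the other 3 having adjusted p-values of 0.0114 to 0.0517, and EPS1 had 0.01 to 0.0253 without 7 other single libraries. In footprints 3 of the 20 were lower (2.95% of all genes), and none without profiling replicate 2 of eS7A-WT. Without TMM scaling none of the 4 was called in mRNA (adjusted p = 0.0184 for ROT2, 0.0574 for GTB1, 0.025 for CWH41 and 0.0758 for EPS1), 2 of the 20 were called lower, KAR2 among them (adjusted p = 5.2e-07), and the median of the list moved from −0.20 to −0.38.

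HAC1 mRNA stood at 1245 cpm in W303 and 1604 and 1577 cpm in eS7A-WT, which was not a called difference (0.35 ± 0.22, adjusted p = 0.29, 95% interval −0.10 to 0.81), and it rose by 0.98 and 1.11 over 4 h. Its footprints stood at 1444 cpm against 1999.6 and 2994 cpm, and its TE difference was 0.44 ± 0.32 (adjusted p = 0.57). HNT1 encodes a nucleotide-binding protein and makes a long, poorly translated transcript isoform under ER stress. It had 150.1 cpm of mRNA in W303 and 183 and 196 cpm in eS7A-WT (0.34 ± 0.15, adjusted p = 0.11) and 12.4 cpm of footprints against 12.5 and 11.7 cpm, with a TE difference of −0.37 ± 0.28 (adjusted p = 0.59). Neither gene was called in any of these 4 h measures. IRE1, the sensor, was lower in eS7A-WT, with 29.2 and 27.9 cpm against 47.6 (−0.74 ± 0.15, adjusted p = 0.00057), and was lower already at 0 h (−0.57, adjusted p = 0.0063). Without RNA-seq replicate 2 of eS7A-WT at 4 h its adjusted p at 4 h was 0.0112, and at 0 h it was 0.0106 to 0.0387 without either RNA-seq library of untreated W303 or of eS7A-WT at 4 h, and without TMM scaling neither was called (0.052 at 4 h and 0.215 at 0 h). GCN4, the activator of amino acid synthesis genes, had 206 cpm of mRNA in W303 and 366 and 355 cpm in eS7A-WT (0.81 ± 0.16, adjusted p = 0.0011), while its footprints went the other way, 21.6 cpm against 14.96 and 14.3 cpm, a difference that was not called (−0.56 ± 0.21, adjusted p = 0.072). Without RNA-seq replicate 1 of eS7A-WT at 4 h the mRNA difference had an adjusted p of 0.0114, and without TMM scaling the footprint difference was called lower (adjusted p = 0.00334).

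Few genes were called in mRNA in other functions of the secretory and protein quality control systems, but calls were few among all genes too. Of all genes tested, 9.66% were called in mRNA, and 87.7% had an mRNA interval within 2-fold. None of 23 genes for ER translocation and signal peptidase was called in mRNA, nor any of 28 for COPII, COPI and p24 transport. All mRNA intervals of both lists lay within 2-fold. Of 23 genes for ER-associated degradation, only MNL2, a putative mannosidase, was lower (−0.51 ± 0.13, adjusted p = 0.0045, but 0.019 and 0.0529 without RNA-seq replicates 1 and 2 of eS7A-WT at 4 h and 0.0136 without RNA-seq replicate 1 of untreated W303), and all 23 intervals lay within 2-fold. The Cdc48 ATPase gene differed by 0.00. Of 29 genes for N-glycan assembly, 2 were called, both mannosyltransferases, ALG3 higher (0.69 ± 0.16, adjusted p = 0.0033) and ALG9 lower (−0.44 ± 0.12, adjusted p = 0.0084). ALG3 had an adjusted p of 0.043 without RNA-seq replicate 2 of eS7A-WT at 4 h, and ALG9 of 0.0697 and 0.0348 without replicates 1 and 2 and of 0.01 to 0.0263 without 9 other single libraries. Of 37 proteasome genes, the list's activator RPN4 was lower (−0.53 ± 0.14, adjusted p = 0.0079), no subunit gene was called, and all 37 intervals lay within 2-fold. Without TMM scaling MNL2, ALG3 and ALG9 were not called (adjusted p = 0.0973, 0.332 and 0.0196). The call of RPN4 was lost without either eS7A-WT RNA-seq library at 4 h (adjusted p = 0.043 and 0.0529) and without 7 other single libraries (0.0117 to 0.0177). In footprints both eS7A-WT libraries lay above W303 for 25 of 28 transport, 17 of 23 translocation and 33 of 37 proteasome genes. Over all genes tested that held for 2299 of 5526. They lay below W303 for 3, 3 and 2 genes, and the medians were 0.46, 0.23 and 0.33, against 0.02 over all genes. Each of these lists held 1 gene called higher, and transport also 1 called lower. For ER-associated degradation and N-glycan assembly both libraries lay above W303 for 10 of 23 and 11 of 29.

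Ribosome production factors fell in both strains. Of 96 ribosome biogenesis factors, 95 fell in each strain, by a median of −2.55 in W303 and −2.41 in eS7A-WT, and 89 of the direct differences had intervals within 2-fold. At 4 h 7 of the 96 were higher in eS7A-WT in mRNA, where 5.14% of all genes were, among them MAK16 (1.14 ± 0.23) and GAR1 (0.90 ± 0.17), factors of large subunit and H/ACA snoRNA maturation, which were not called without TMM scaling (adjusted p = 0.0799 and 0.0505). None of the 96 was called in footprints, where MAK16 gave −0.60 and GAR1 −0.16. Of 31 translation initiation factors, 28 fell in each strain and none differed between the strains in mRNA.

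**Figure D2:**
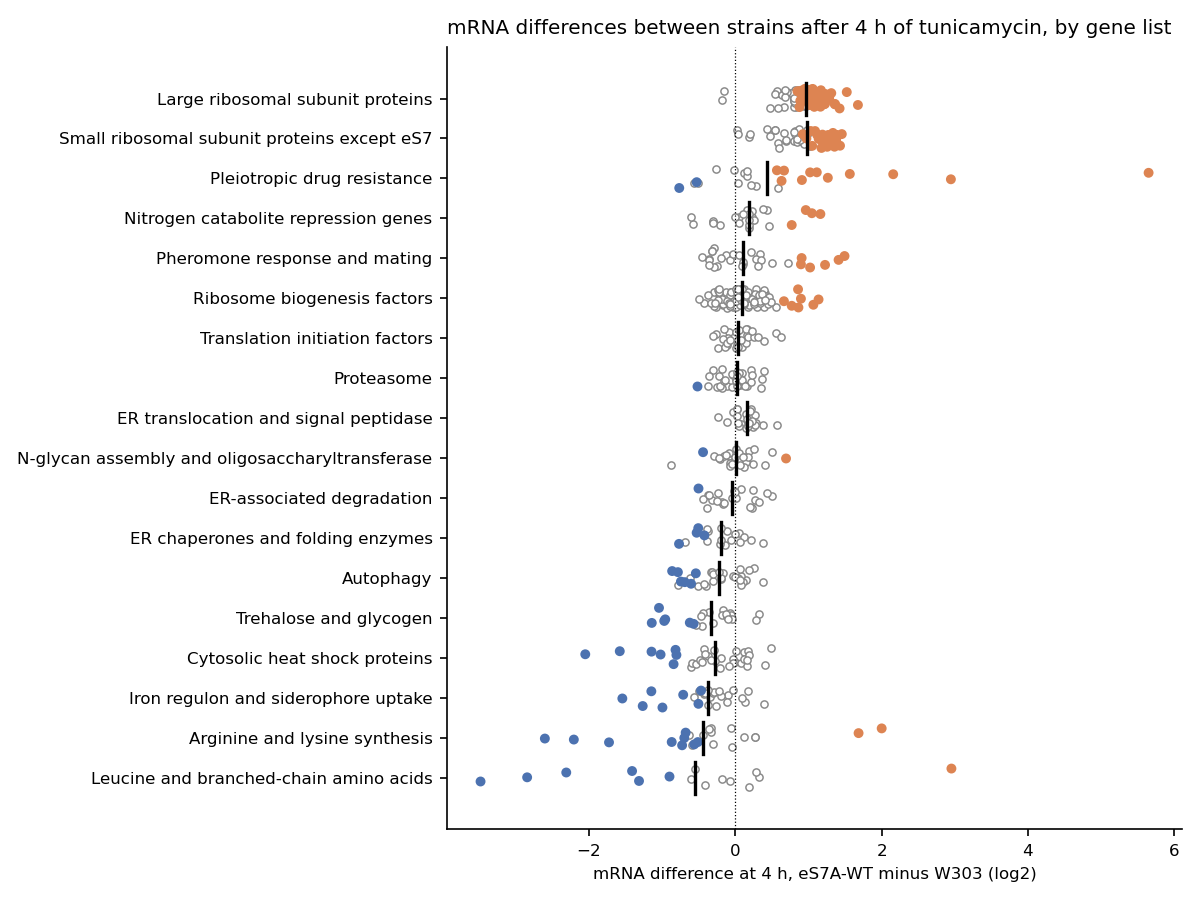
mRNA difference at 4 h, eS7A-WT minus W303 (x axis, log2), for the members of 18 gene lists (1 point per gene, black bar at the list's median; orange, called higher; blue, called lower; open, not called). Ribosomal protein lists have medians of 0.96 and 0.98, ER and proteasome lists lie near 0, and the leucine and arginine lists hold called genes on both sides.

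Ribosomal protein genes held the most calls of all lists. Of 55 genes for small subunit proteins other than eS7, 27 were higher in eS7A-WT and none lower, with a median difference of 0.98, and of 81 for large subunit proteins, 47 were higher and none lower, with a median of 0.96, against −0.03 over all genes tested and a share of 5.14% called higher. Both eS7A-WT libraries lay above W303 for 53 of the 55 and 79 of the 81, compared with 40.7% of all genes tested. In footprints, 42 of 55 and 64 of 81 were higher, with medians of 1.16 and 1.11, against 5.03% of all genes. No gene of either list was called in TE, where the medians were 0.20 and 0.12 against 0.07 over all genes. RPS8A, of the small subunit, had 168 cpm in W303 and 387 and 372 cpm in eS7A-WT (1.18 ± 0.27, adjusted p = 0.0046). ASC1, which encodes the ribosome-bound scaffold RACK1, had 103 cpm against 276 and 289 cpm (1.46 ± 0.27, adjusted p = 0.00058). In both genes the eS7A-WT replicates were close to each other and well above W303, although RPS8A was not called without either eS7A-WT RNA-seq library at 4 h or either untreated W303 profiling library (adjusted p = 0.0123 to 0.0277).

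RPS31, which encodes a fusion of ubiquitin with a small subunit protein, differed by 1.39 ± 0.26 (adjusted p = 0.00072), RPS20 by 1.43 ± 0.28 and RPS22A by 1.38 ± 0.25. Of the large subunit, RPL2A had the largest difference, from 73.7 cpm in W303 to 234 and 237 cpm in eS7A-WT (1.68 ± 0.25, adjusted p = 5.8e-05), followed by its paralog RPL2B (1.52 ± 0.27), RPL42A (1.43 ± 0.24) and RPL31B (1.36 ± 0.20). RPL4A and RPL4B, the pair with the most counts, gave 0.80 ± 0.26 and 0.80 ± 0.26 and were not called (adjusted p = 0.036 and 0.037). Paralogs of this kind share long identical stretches, and how their reads were divided was not stated, so a value belongs to the pair more surely than to either gene.

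All of these mRNAs fell over the 4 h in both strains, by a median of −4.43 in W303 and −3.69 in eS7A-WT for the small subunit and of −4.46 and −3.63 for the large subunit. At 0 h, when 13.6% of all genes differed, no gene of either list was called in mRNA, with medians of 0.19 and 0.24. The test of the difference between the strains' changes, however, was passed by only 2 small and 1 large subunit genes (4.00% of all genes), with medians of 0.78 and 0.79, so a smaller fall in eS7A-WT was not established gene by gene. The number of calls depended on single libraries. In mRNA it was 14 and 15 without RNA-seq replicate 1 of eS7A-WT at 4 h, 18 and 18 without replicate 2, and 28 large subunit genes without either untreated W303 profiling library. In footprints it was 8 and 19 without profiling replicate 2 of eS7A-WT at 4 h, 25 and 29 without either untreated W303 profiling library, and 0 and 0 with the newer quasi-likelihood method of edgeR. Without TMM scaling the mRNA medians were 0.80 and 0.78, with 44 and 74 genes higher and none lower.

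Several genes of branched-chain amino acid synthesis were lower in eS7A-WT by large factors. Of 15 genes in the list, 6 were lower in mRNA and 1, LEU2 itself, was higher, and in footprints 8 were lower and 1 higher, against 4.52% and 2.95% of all genes called lower. OAC1, a mitochondrial carrier that exports the leucine precursor 2-isopropylmalate, had 57.7 cpm of mRNA in W303 and 4.97 and 5.34 cpm in eS7A-WT, and 103 cpm of footprints against 4.09 and 1.32 cpm. Among genes lower in eS7A-WT this was the largest mRNA difference after RPS7B, 11.2-fold (−3.48 ± 0.16, adjusted p = 1.3e-15) and it was larger in footprints (−5.09 ± 0.24, adjusted p = 1.6e-16). LEU1, isopropylmalate isomerase, which acts just before the LEU2 enzyme, had 1335 cpm against 184 and 187 cpm (−2.85 ± 0.19, adjusted p = 2.8e-12). BAT1, the mitochondrial branched-chain aminotransferase, had 395 cpm against 77.2 and 82.2 cpm (−2.31 ± 0.18, adjusted p = 8e-11). In all 3 genes every eS7A-WT library was far below W303. The other lower members, named for completeness after their values were seen, were the acetolactate synthase gene ILV2 (−1.41 ± 0.19), the amino acid permease gene BAP2 (−1.32 ± 0.14) and ILV5 (−0.90 ± 0.22). ILV5 was not called without either eS7A-WT RNA-seq library at 4 h (adjusted p = 0.0531 and 0.0243), either untreated W303 profiling library or RNA-seq replicate 1 of untreated W303 (0.0103 to 0.0123). LEU4, the first enzyme of leucine synthesis, gave −0.54 ± 0.19 and was not called (adjusted p = 0.036).

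The gap was present before treatment. At 0 h LEU1 had 1305 and 1308 cpm in W303 and 138 cpm in eS7A-WT (−3.24 ± 0.19, adjusted p = 4.2e-12), and LEU2 had 72.4 and 69.6 cpm in W303 against 495 cpm (2.80 ± 0.20, adjusted p = 4.2e-12). Neither passed the test of a different change over 4 h (adjusted p = 0.42 and 0.82). OAC1 did, with changes of −1.15 in W303 and −2.39 in eS7A-WT (difference of the changes −1.24 ± 0.22, adjusted p = 0.00025, but 0.0386 without TMM scaling).

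Arginine metabolism differed in both directions, synthesis lower and breakdown higher in eS7A-WT. Of 23 genes for arginine and lysine, 9 were lower and 2 higher in mRNA (4.52% and 5.14% of all genes), and 7 were lower and 2 higher in footprints (2.95% and 5.03%), or 12 and 2 without TMM scaling. ARG1, argininosuccinate synthetase, had 71.2 cpm in W303 and 11.2 and 12.3 cpm in eS7A-WT (−2.60 ± 0.18, adjusted p = 7.3e-12). ARG3, ornithine carbamoyltransferase, had 20.04 cpm against 3.71 and 4.93 cpm (−2.21 ± 0.16, adjusted p = 2.8e-11), and ARG56 183 cpm against 55.2 and 55.4 cpm (−1.73 ± 0.14, adjusted p = 2.5e-10). The 2 higher genes were the catabolic ones. CAR1, arginase, had 43.6 cpm in W303 and 165 and 184 cpm in eS7A-WT (2.00 ± 0.16, adjusted p = 1.2e-09), and CAR2, ornithine transaminase, 59.4 cpm against 179.5 and 203 cpm (1.69 ± 0.14, adjusted p = 2e-09). The synthesis genes were lower to a similar or larger extent at 0 h (ARG1 −2.59, ARG3 −3.04, ARG56 −2.59). CAR1 was not called at 0 h (0.40 ± 0.16, adjusted p = 0.061), and its change over 4 h differed between the strains, −1.03 in W303 and 0.58 in eS7A-WT (adjusted p = 1.8e-05).

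A few other genes of nitrogen use were higher in eS7A-WT. Of 25 genes under nitrogen catabolite repression, 4 were higher in eS7A-WT and none lower (5.14% and 4.52% of all genes), namely the ammonium permease gene MEP3 (1.16 ± 0.17), the proline permease gene PUT4 (1.05 ± 0.20), the proline oxidase gene PUT1 (0.96 ± 0.13) and the urea amidolyase gene DUR12 (0.77 ± 0.14), although 6 of the 25 had been lower and none higher at 0 h, against 7.46% and 6.19% of all genes. All 4 calls were lost without TMM scaling (adjusted p = 0.0873, 0.158, 0.0159 and 0.195). CHA1, the serine and threonine deaminase, had the largest difference among the higher genes that had 100 counts or more on average, with 1.95 cpm in W303 and 29.5 and 26.9 cpm in eS7A-WT (3.85 ± 0.24, adjusted p = 2.8e-12). PTR2, the di- and tripeptide transporter, had 8.87 cpm against 50.5 and 54.6 cpm (2.57 ± 0.17, adjusted p = 3.5e-11). Both were higher at 0 h too, CHA1 by 3.46 ± 0.20 and PTR2 by 3.69 ± 0.16. Of 33 vitamin synthesis genes, 3 were lower and 1 higher (4.52% and 5.14% of all genes). The lower ones were the pyridoxine genes SNO1 (−2.99 ± 0.32, adjusted p = 2.2e-08) and SNZ1 (−1.47 ± 0.19, adjusted p = 1.6e-06), and BNA4 (−0.52, adjusted p = 0.0051). The higher one was PHO3 (1.47). Of 8 histidine genes, HIS6 was higher (0.91 ± 0.21, adjusted p = 0.0028, but 0.0156 and 0.0178 without RNA-seq replicates 1 and 2 of eS7A-WT at 4 h and 0.209 without TMM scaling) and HIS4 was not called (−0.49 ± 0.15, adjusted p = 0.018).

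**Figure D3:**
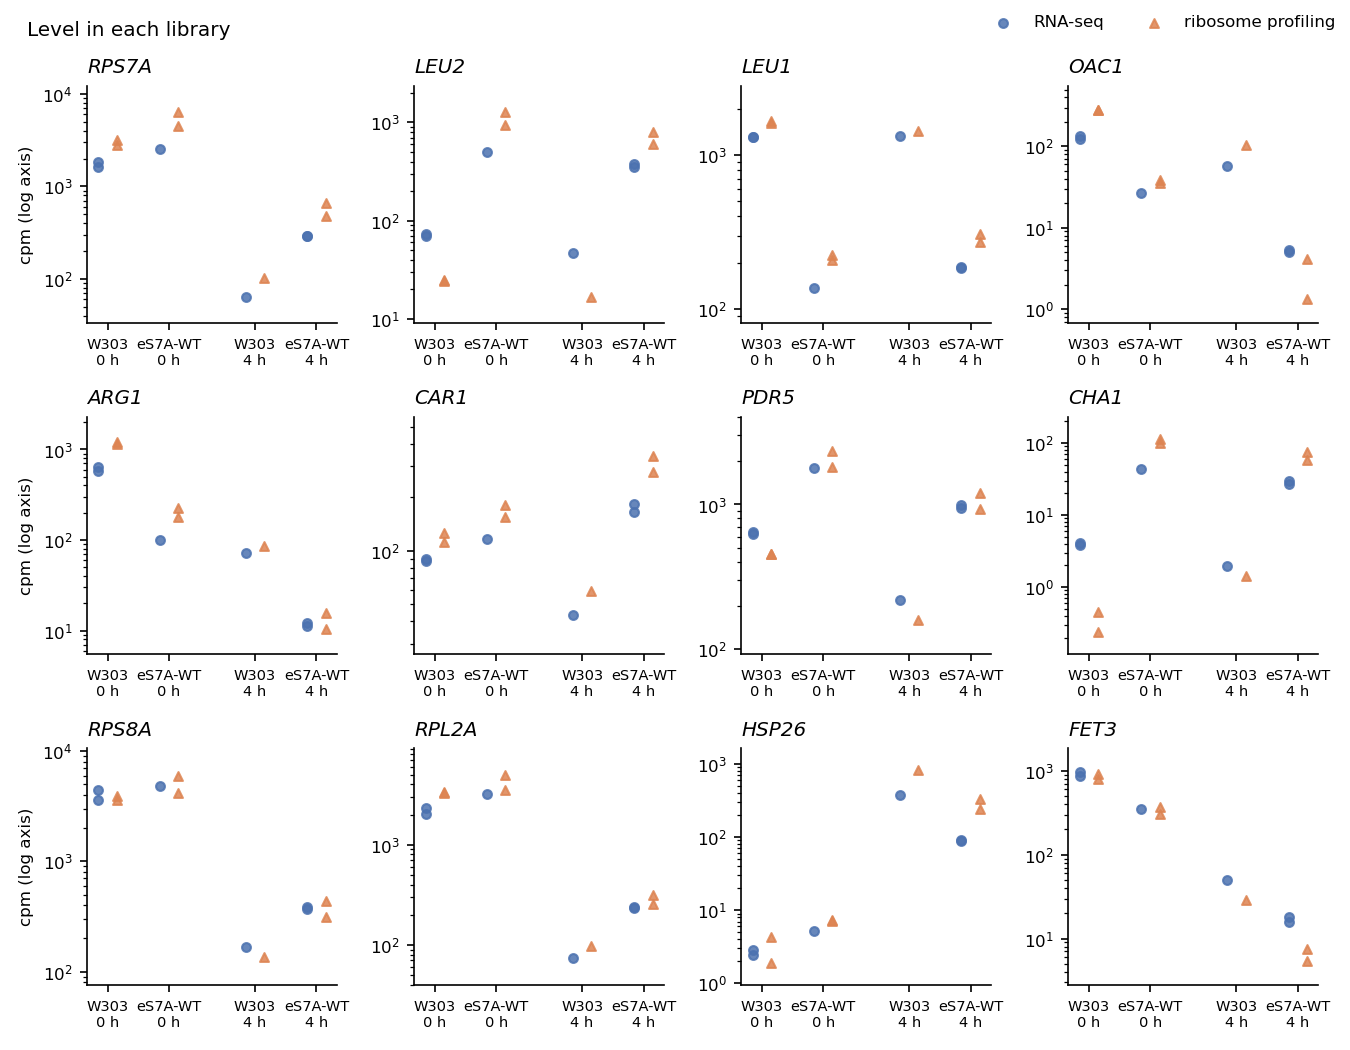
Level of 12 genes in each library (y axis, TMM-scaled cpm, log axis) of W303 and eS7A-WT at 0 and 4 h, with 1 point per library (circles, RNA-seq; triangles, ribosome profiling). LEU1, OAC1 and ARG1 are lower and LEU2, PDR5 and CHA1 higher in eS7A-WT at both times, whereas HSP26 is higher at 0 h and lower at 4 h.

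Many pleiotropic drug resistance genes, targets of the factors Pdr1 and Pdr3, were higher in eS7A-WT. Of 24 genes, 11 were higher and 2 lower in mRNA (5.14% and 4.52% of all genes) and 9 higher and none lower in footprints (5.03% and 2.95%). PDR5, the main drug efflux ABC transporter of the plasma membrane, had 218 cpm in W303 and 946 and 996 cpm in eS7A-WT, 4.46-fold more (2.16 ± 0.23, adjusted p = 4.4e-07). SNQ2, another efflux ABC transporter, had 134 cpm against 401 and 394 cpm (1.57 ± 0.19, adjusted p = 3.4e-06). AZR1, a transporter of the major facilitator superfamily, had 2 RNA-seq counts in the W303 library and 115 and 164 in the eS7A-WT libraries (adjusted p = 1.2e-09), and RSB1, a lipid translocase gene, had 9 against 83 and 95 (adjusted p = 9.5e-06). These 4 were higher in every eS7A-WT library. Further higher members, named after their values were seen, were ICT1 (1.27 ± 0.14), YOR1 (1.11 ± 0.13) and PDR16 (1.02 ± 0.15), and the lower members were the ABC transporter gene VMR1 (−0.77 ± 0.15) and RPN4. The genes of the transcription factors themselves were not called, PDR1 at −0.26 ± 0.12 (adjusted p = 0.11) and PDR3 at 0.12 ± 0.18 (adjusted p = 0.68).

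The pattern preceded Tm, with 12 of the 24 higher and 4 lower at 0 h, where 6.19% and 7.46% of all genes were called. PDR5 then had 643 and 625 cpm in W303 against 1785 cpm in eS7A-WT (1.49 ± 0.23, adjusted p = 9.2e-06) and SNQ2 269.9 and 252 cpm against 1211 cpm (2.22 ± 0.19, adjusted p = 2.8e-10). Both transcripts decreased in both strains during treatment, and the decreases did not differ by the test (adjusted p = 0.24 and 0.15). With total counts in place of TMM scaling, 7 of the 24 were higher and 1 lower in mRNA at 4 h, VMR1 no longer being called (adjusted p = 0.0454), and 4 were higher in footprints, while the differences between the decreases were called for PDR5 and SNQ2 (0.00594 and 0.00241).

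Several iron and phosphate genes were lower in eS7A-WT. Of 27 genes of the iron regulon and siderophore uptake, 7 were lower in mRNA and 11 in footprints (4.52% and 2.95% of all genes) and none was higher, and both eS7A-WT libraries lay below W303 for 23 of the 27, compared with 49.1% of all genes. FET3, the multicopper oxidase of high-affinity iron uptake, had 49.4 cpm in W303 and 15.8 and 18.1 cpm in eS7A-WT (−1.54 ± 0.18, adjusted p = 1.8e-07). TIS11, which destabilises mRNAs under iron shortage, had 96.9 cpm against 38.02 and 42.6 cpm (−1.27 ± 0.13, adjusted p = 3.1e-08), the siderophore transporter gene SIT1 differed by −1.15 ± 0.13 and the iron-sulphur scaffold gene ISU2 stood at 26.9 cpm against 12.8 and 14.2 cpm (adjusted p = 4.1e-05). Without either eS7A-WT RNA-seq library at 4 h the count in mRNA was 4, and without profiling replicate 2 the count in footprints was 6. Without TMM scaling the count in mRNA was 3, and ISU2 was not called (adjusted p = 0.0122). At 0 h 13 of the 27 were lower and 1 higher (7.46% and 6.19% of all genes). Of 23 phosphate regulon genes, 4 were lower and 1 higher (4.52% and 5.14% of all genes). The lower ones included PHO84, the high-affinity phosphate transporter, with 17.1 cpm in W303 and 5.26 and 5.03 cpm in eS7A-WT (−1.74 ± 0.17, adjusted p = 1.7e-08), PHM8 (−0.96 ± 0.15) and PHO81 (−0.79 ± 0.12, with an adjusted p of 0.0124 without TMM scaling), and the acid phosphatase gene PHO3 was higher (1.47 ± 0.21). Of 29 sulfate and methionine genes, 2 were higher and 2 lower in mRNA (5.14% and 4.52% of all genes), and 6 were higher and 2 lower in footprints (5.03% and 2.95%). The sulfate permease gene SUL1 had 11.7 cpm in W303 and 3.29 and 2.97 cpm in eS7A-WT (−1.90 ± 0.23, adjusted p = 4.4e-07), and STR2, of cysteine synthesis, was lower too (−0.77 ± 0.14), while MET14, the adenylylsulfate kinase, and MET28, a regulator, were higher (0.74 ± 0.12 and 0.94 ± 0.22). Without RNA-seq replicate 2 of eS7A-WT at 4 h the adjusted p of STR2 was 0.0148 and that of MET28 0.0237, and without replicate 1 that of MET28 was 0.029. Of these 4 genes SUL1 alone was called without TMM scaling (adjusted p = 0.0199 for STR2, 0.161 for MET14 and 0.209 for MET28).

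Many heat shock and most reserve carbohydrate genes rose in both strains, but several reached lower levels in eS7A-WT. Of 34 cytosolic heat shock protein genes, 7 were lower and none higher in mRNA (4.52% and 5.14% of all genes), with a median of −0.28. In footprints 6 were lower and none higher (2.95% and 5.03%), but the median was 0.20 and 20 of the 34 differences were positive. Without TMM scaling 15 were lower in mRNA and 7 in footprints, with medians of −0.47 and −0.25. HSP26, a small heat shock protein, had 375 cpm in W303 and 91.99 and 89.2 cpm in eS7A-WT (−2.05 ± 0.18, adjusted p = 1.2e-09), and HSP12, a membrane-protecting stress protein, 401 cpm against 135 and 134 cpm (−1.58 ± 0.18, adjusted p = 1.9e-07). SSA4, an inducible Hsp70, differed by −1.14 ± 0.14 and HSP31, a glutathione-independent glyoxalase, by −1.02 ± 0.13. DDR2, a general stress gene, showed a still wider gap, with 60.7 cpm in W303 and 11.6 and 12.7 cpm in eS7A-WT (−2.32 ± 0.17, adjusted p = 3.5e-11). The constitutive Hsp70 genes with the most counts did not follow, SSA1 standing at 4323 cpm against 4178 and 4446 cpm (0.00 ± 0.29, adjusted p = 0.99).

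Of 22 trehalose and glycogen genes, 20 rose in each strain, by a median of 2.05 in W303 and 1.63 in eS7A-WT, and 6 were lower in eS7A-WT at 4 h and none higher (4.52% and 5.14% of all genes), but 3 were lower without TMM scaling. The lower ones with the largest differences were GPH1, glycogen phosphorylase (−1.14 ± 0.12, adjusted p = 2.9e-08), GLC3, the branching enzyme (−1.04 ± 0.14), ATH1, acid trehalase (−0.97 ± 0.16, with an adjusted p of 0.024 without TMM scaling), and PGM2, phosphoglucomutase (−0.96 ± 0.12). TSL1 and TPS1, of trehalose synthase, were not called (−0.16 ± 0.18 and −0.07 ± 0.18). Both eS7A-WT libraries lay below W303 in mRNA for 20 of the 22 and above for 2, against 49.1% and 40.7% of all genes. In footprints they lay below for 12 and above for 9. Of 31 autophagy genes, 28 rose in W303 and 29 in eS7A-WT, and 6 were lower in eS7A-WT at 4 h and none higher, against the same shares of all genes, among them ATG1, the initiating kinase, with 111 cpm in W303 and 64.3 and 57.9 cpm in eS7A-WT (−0.86 ± 0.14, adjusted p = 3.6e-05). ATG1, ATG9, ATG11 and ATG39 were not called without TMM scaling (adjusted p = 0.0156 to 0.129).

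Of 29 genes of glycolysis and fermentation, 1 was higher and 1 lower in mRNA (5.14% and 4.52% of all genes). Both eS7A-WT libraries lay above W303 for 23 of the 29 in mRNA, compared with 40.7% of all genes. In footprints 1 was called higher and none lower (5.03% and 2.95%), with a median of 0.71. There both eS7A-WT libraries lay above W303 for 26 of the 29, against 2299 of 5526 genes tested. In mRNA ADH2, the glucose-repressed alcohol dehydrogenase, was higher, with 265 cpm in W303 and 756 and 765 cpm in eS7A-WT (1.52 ± 0.25, adjusted p = 0.00018). HXK1, hexokinase I, was lower (−0.74 ± 0.19). Of 34 genes of the TCA and glyoxylate cycles, CIT2, the peroxisomal citrate synthase, had 194 cpm against 61.1 and 63.6 cpm (−1.64 ± 0.15, adjusted p = 2.7e-09) and was 1 of 4 lower members (4.52% of all genes). The hexose transporter gene HXT5 was lower (−1.39 ± 0.14, adjusted p = 1.9e-08) and HXT1 higher (0.70 ± 0.17). HXK1 and HXT1 were not called without either eS7A-WT RNA-seq library at 4 h or either untreated W303 profiling library, and HXK1 not without RNA-seq replicate 1 of untreated W303 (adjusted p = 0.0123 to 0.0475). Of 30 mating genes, 6 were higher and none lower (5.14% and 4.52% of all genes), including AGA1, the a-agglutinin anchor, with 9.01 cpm in W303 and 23.5 and 24.5 cpm in eS7A-WT (1.41 ± 0.14, adjusted p = 6.2e-08), the a-factor gene MFA2 (1.49 ± 0.26) and the receptor gene STE2 (1.02 ± 0.17).

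TE differed for 16 genes (0.290%), 4 higher (0.0724%) and 12 lower (0.217%) in eS7A-WT, while 767 genes had an unadjusted p below 0.05 and DESeq2 called 33. The balance turned with a block by replicate number within each assay, under which 228 genes were higher and 56 lower. For 3978 genes the 95% interval of the TE difference lay within 2-fold. The 2 highest of the 16 were loci engineered in this strain. LEU2 had 16.9 cpm of footprints in W303 and 599.9 and 800.5 cpm in eS7A-WT, a larger gap than in mRNA (TE difference 2.42 ± 0.32, adjusted p = 4.3e-05). W303 has the leu2 marker allele and eS7A-WT also the plasmid copy, so this value compares different alleles and not the same mRNA. With the newer quasi-likelihood method of edgeR the adjusted p of LEU2 was 0.0557. RPS7B had 52.3 cpm of footprints against 38.8 and 47.3 cpm, although its mRNA was near 1 cpm in eS7A-WT (TE difference 3.60 ± 0.35, adjusted p = 3.2e-07). The gene is deleted in eS7A-WT, so this TE value does not measure its translation and rests on reads that may belong to RPS7A. The other 2, chosen after their values were seen, were YJR079W (2.38 ± 0.37) and YMR304C-A (1.58 ± 0.27), to which the annotation gives no name.

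Lower TE took 2 forms. In the first, footprints were lower without an equal fall in mRNA. CPA1, the arginine-specific carbamoyl phosphate synthetase subunit, whose leader encodes an arginine attenuator peptide, had 128 cpm of mRNA in W303 and 75.3 and 82.5 cpm in eS7A-WT but 89.5 cpm of footprints against 16.00 and 16.4 cpm (TE difference −1.77 ± 0.21, adjusted p = 1.7e-05). ARG8, acetylornithine aminotransferase, had 29.7 cpm of footprints against 5.54 and 3.13 cpm (−1.82 ± 0.28, adjusted p = 0.00027), and SSA3, an inducible Hsp70, 29.7 cpm against 4.78 and 5.30 cpm (−1.77 ± 0.22, adjusted p = 1.7e-05). PHM7 had nearly equal mRNA, 51.02 cpm against 39.2 and 45.5 cpm, and footprints of 23.9 cpm against 6.44 and 4.09 cpm (−1.86 ± 0.31, adjusted p = 0.00091). OAC1 (−1.61 ± 0.29) and, named after its values were seen, the ER-phagy receptor gene ATG40 (−1.63 ± 0.22) were of the same form.

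In the second, mRNA was higher and footprints did not follow. GCN4, whose mRNA was called higher and whose footprints were not called, had a TE difference of −1.36 ± 0.26 (adjusted p = 0.0075). VPS24, of the ESCRT-III complex, had 0.706 cpm of mRNA in W303 and 3.15 and 3.19 cpm in eS7A-WT, but 27.1 cpm of footprints against 23.96 and 24.2 cpm (TE difference −2.33 ± 0.36, adjusted p = 0.00026). IES2, of the INO80 complex, had 2.00 cpm of mRNA against 6.17 and 6.06 cpm and 31.6 cpm of footprints against 29.4 and 26.2 cpm (−1.79 ± 0.29, adjusted p = 0.00064). FCY1 (−1.64 ± 0.25), EAF7 (−1.60 ± 0.30) and SND2 (−1.37 ± 0.27), named after their values were seen, were alike. At VPS24 the RNA-seq reads were few, 29 in the W303 library and 152 and 175 in the eS7A-WT libraries.

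Some of the TE calls rested on the scaling or on single libraries. Of the 16, 9 were lost without TMM scaling, PHM7, ARG8, IES2, OAC1, EAF7, SND2, ATG40, YJR079W and YMR304C-A (adjusted p = 0.0141 to 0.114). For GCN4 the adjusted p was 0.0104 to 0.0274 under 11 of the fits with a library left out, among them all 4 of eS7A-WT at 4 h, and for SND2 it was 0.0101 to 0.0289 under 9 such fits. OAC1 had an adjusted p of 0.0107 without profiling replicate 2 and 0.0126 without RNA-seq replicate 2 of eS7A-WT at 4 h, and EAF7 of 0.0101 without profiling replicate 1 and 0.0148 and 0.0183 without RNA-seq replicates 1 and 2. The count of 16 ranged from 12 to 30 over the fits with a library left out, with 25 to 30 without any of 7 libraries, the profiling libraries of eS7A-WT at 0 h and of eS7A-4KR and RNA-seq replicate 1 of untreated W303.

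**Figure D4:**
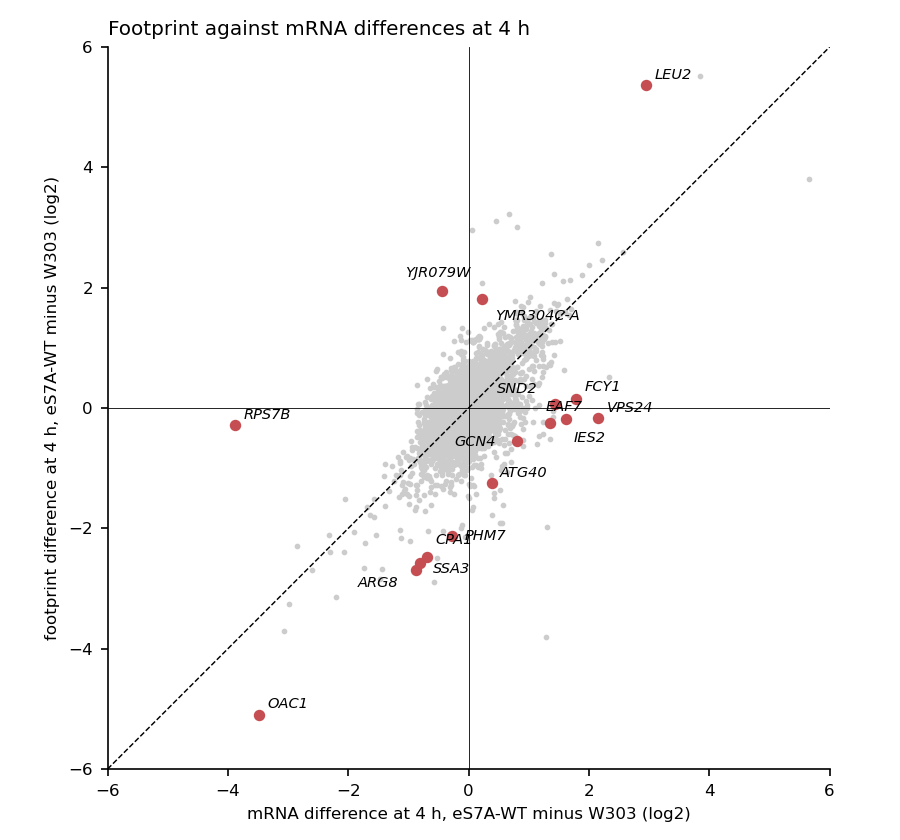
Footprint difference (y axis, log2) against mRNA difference (x axis, log2) at 4 h, eS7A-WT minus W303, with 1 point per gene tested, the 16 genes called in TE in red and 5 genes outside the axes; the dashed line marks equal TE. CPA1, ARG8, SSA3 and PHM7 lie below the line with low footprints, VPS24 and IES2 with high mRNA.

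Differences after 4 h were in part those of the untreated strains. At 0 h 754 genes differed in mRNA (13.6%), 342 higher and 412 lower in eS7A-WT, and 343 without RNA-seq replicate 1 of untreated W303. Of the 534 genes called at 4 h, 148 had been called in the same direction at 0 h, which is 27.7% of the 4 h set and 19.6% of the 0 h set, 29 had been called in the opposite direction and 357 not at all. A gene called at 4 h and not at 0 h need not have changed differently, since of those 357 only 49 also passed the test of the difference between the strains' changes. That test was passed by 221 genes in mRNA (4.00%), 126 with the higher (2.28%) and 95 with the lower change (1.72%) in eS7A-WT. The number fell to 120 without RNA-seq replicate 1 of untreated W303 and to 147 and 126 without RNA-seq replicates 1 and 2 of eS7A-WT at 4 h.

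Over all genes the share called lower in eS7A-WT was 7.46% at 0 h and 4.52% at 4 h, and the share called higher 6.19% and 5.14%. Of 23 genes for inositol and phospholipids, 10 were lower and none higher at 0 h, whereas at 4 h none was lower and 3 were higher in mRNA and none was called in footprints. The change differed for 8, all with the higher change in eS7A-WT (2.28% of all genes). OPI3, a phospholipid methyltransferase, had 185 and 201 cpm in W303 and 36.1 cpm in eS7A-WT at 0 h and 316 against 511 and 573 cpm at 4 h (difference of the changes 3.19 ± 0.24, adjusted p = 2e-09). INO1, inositol phosphate synthase and a classic UPR-linked gene, had 12.1 and 14.6 cpm in W303 and 3.19 cpm in eS7A-WT at 0 h and 553 against 599.8 and 625 cpm at 4 h (2.21 ± 0.30, adjusted p = 1.4e-05). INO1 was called at 0 h (−2.06 ± 0.24, adjusted p = 2.9e-07) and not at 4 h (0.15 ± 0.19, adjusted p = 0.63, 95% interval −0.24 to 0.53). The count of 3 higher genes at 4 h was 1 and 0 without RNA-seq replicate 1 and 2 of eS7A-WT at 4 h, and 1 without either RNA-seq library of eS7A-4KR at 0 h. It was 0 without TMM scaling, when the median of the list at 4 h turned from 0.07 to −0.11.

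Of 29 sulfate and methionine genes, 8 were lower at 0 h, and the change differed for 6. MET6, methionine synthase, had 2479 and 2545 cpm in W303 and 477 cpm in eS7A-WT at 0 h and 554 against 463 and 455 cpm at 4 h (2.12 ± 0.30, adjusted p = 3.8e-05), and MET13, which supplies its methyl donor, gave 2.54 ± 0.22 (adjusted p = 9.2e-09). Of the 23 phosphate genes, 11 were lower and 1 higher at 0 h, against 4 and 1 at 4 h.

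Named stress genes had the lower change in eS7A-WT. HSP26 had 2.41 and 2.84 cpm in W303 and 5.13 cpm in eS7A-WT at 0 h, and rose by 7.16 in W303 and by 4.14 in eS7A-WT (difference −3.01 ± 0.31, adjusted p = 4.6e-08). HSP12 rose by 7.72 and 4.39 (−3.33 ± 0.32, adjusted p = 1.1e-08), and DDR2 by 8.04 and 4.42 (−3.62 ± 0.63, adjusted p = 0.0002) from levels at 0 h of 0.113 and 0.336 cpm in W303 and 0.564 cpm in eS7A-WT. ARO10, a decarboxylase of amino acid catabolism, went from 1.58 and 1.79 cpm in W303 and 12.3 cpm in eS7A-WT to 75.01 against 38.02 and 42.95 cpm, the largest difference of changes named here (−3.75 ± 0.24, adjusted p = 6.2e-12). Of 39 genes of the respiratory chain and ATP synthase, 14 were higher and none lower in untreated eS7A-WT (6.19% and 7.46% of all genes), and at 4 h 1 was higher and 3 were lower (5.14% and 4.52%), although the change differed for only 2.

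**Figure D5:**
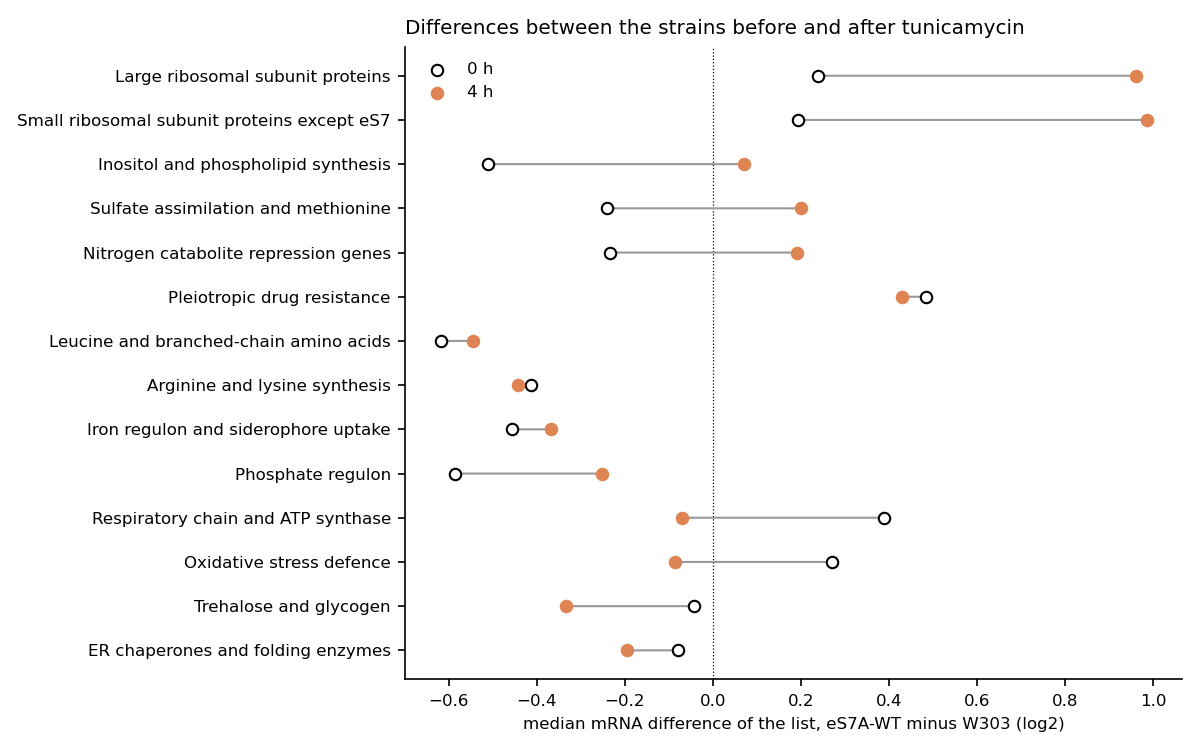
Median mRNA difference between the strains, eS7A-WT minus W303 (x axis, log2), of 14 gene lists at 0 h (open) and 4 h (filled). The leucine median is −0.62 at 0 h and −0.54 at 4 h and the drug resistance median 0.48 and 0.43, while ribosomal proteins move from 0.24 and 0.19 to 0.96 and 0.98, and inositol genes move from −0.51 to 0.07 (−0.11 without TMM scaling).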

How the data were processed

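Ribosome profiling and RNA-seq libraries of yeast strains were compared after Tm. The deposited files give raw counts per ORF beside an ORF length in codons, a value of another kind that per the labels has no further description and was not used in any test. The authors mapped reads to the yeast transcriptome, removed duplicates by random barcodes, kept footprints of a range of lengths (not stated for W303) and assigned them to the ribosomal A-site. The submitters' processing notes name CASAVA 1.8, Bowtie2 2.0.6, TopHat2 2.0.7 and sacCer3. No column of per-sample values was left out.

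Counts of all 25 libraries entered a single fit of group means in edgeR 4.0.16 (quasi-likelihood test, R 4.3.3) with TMM within each assay. Genes averaging under 10 counts a library in either assay were left out, which kept 5526 of 6696 ORFs. TE was tested as the interaction of assay and strain, and changes over time as the difference between 4 and 0 h. The standard error printed is the Wald error after scaling by the quasi-likelihood dispersion. The p-values were adjusted over all genes tested, with a threshold of 0.01. The scripts were tested on simulated data. Symbols came from the RefSeq table, which named 6008 ORFs, and 55 ORFs had counts identical to another ORF.

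Text names the 6 largest called differences in each direction in mRNA and TE (a mean of at least 100 counts, both eS7A-WT libraries on the same side of W303), up to 4 called members and the 2 with most counts of each list, the marker loci, HAC1 and HNT1. The comparison, the 45 lists and the named genes were chosen with earlier results of these data known. Also named were the 6 largest called differences of the mRNA changes in each direction, with the same minimum of counts. The differences of changes of RPS7A, CAR1, AGA1, HXT5, GPH1 and PHM8 were picked outside these rules. So were LEU4, PDR1 and PDR3, which carry no mark. Other genes outside the rules are marked as named after their values were seen. Alternatives covered scaling, filters, the test (DESeq2 1.42.0 among them), the libraries in the fit, a replicate block and leaving out each library of a replicated group. Those for the 0 h difference and for the changes within a strain were added after seeing the data.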

Additional observations from a re-analysis of the deposited data

Results flagged for a closer look

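The results below stand out because the change from 0 to 4 h of Tm differed between the strains by the test of the difference itself, the quasi-likelihood test of edgeR with Benjamini-Hochberg adjusted p-values. This held for 221 genes in mRNA, 121 in footprints and 12 in TE. A positive difference means the higher change in eS7A-WT.

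In mRNA the difference of the changes was 3.19 ± 0.24 for OPI3, 2.54 ± 0.22 for MET13, 2.21 ± 0.30 for INO1, 2.12 ± 0.30 for MET6 and 1.92 ± 0.20 for DUR12, genes of phospholipid, methionine, inositol and urea metabolism that were lower in eS7A-WT at 0 h. It was 2.19 ± 0.29 for IES2, 1.66 ± 0.37 for RPS7A, 1.61 ± 0.22 for CAR1 and 1.42 ± 0.20 for AGA1. The value of RPS7A had an adjusted p of 0.0058, which became 0.0105 to 0.0243 without any of 10 single libraries, and that of AGA1 had 0.0428 without TMM scaling.

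The difference was negative for ARO10 (−3.75 ± 0.24), CIS1 (−3.64 ± 0.55), DDR2 (−3.62 ± 0.63), HSP12 (−3.33 ± 0.32), HSP26 (−3.01 ± 0.31), FRE7 (−2.71 ± 0.25), HXT5 (−2.51 ± 0.22), PHM8 (−2.09 ± 0.22) and GPH1 (−1.64 ± 0.18). CIS1 had 0.151 and 0.336 cpm of mRNA in W303 and 8.05 cpm in eS7A-WT at 0 h, and 3.19 against 8.92 and 7.65 cpm at 4 h. FRE7, a ferric or cupric reductase gene, had 3.28 and 2.65 cpm against 59.4 cpm at 0 h and 20.6 against 61.5 and 64.4 cpm at 4 h. In both genes W303 rose while eS7A-WT stayed near its 0 h level. HSP26, HSP12, HXT5 and PHM8 were higher in eS7A-WT at 0 h and lower at 4 h.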

How the results depend on the processing

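The comparison rests on 1 W303 library per assay at 4 h, and the W303 profiling library was the shallowest. Of 186 single results named in the text, tried under 5708 alternatives in all, none reversed, 91 stayed on the same side of the threshold under every alternative run, and the alternatives gave 390 lost and 34 gained calls, 64 of the losses without TMM scaling. The cause of these shifts was not tested, apart from those where fewer libraries or another threshold were used.

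The number of genes called at 4 h in mRNA (534) was 354 without TMM scaling, 1038 with the newer quasi-likelihood method, 825 with only the 6 libraries at 4 h, 1477 with each assay fitted alone and 1113 at an adjusted p below 0.05. In footprints (441) it was 121 with the newer method, 251 with the assay alone and 809 at 0.05. In TE (16) it was 25 with TMM over all libraries, 9 without TMM, 9 with the newer method, 29 with the 13 libraries of both strains at 0 and 4 h, 49 with the 6 libraries, 33 with DESeq2 and 41 at 0.05. The difference of the mRNA changes (221) gave 761 with the assay alone and 417 at 0.05, and that of the TE changes (12) gave 1 without TMM, 0 with the newer method, 21 with DESeq2 and 21 at 0.05. At 0 h (754) the count was 322 without TMM, 1640 with the assay alone and 1331 at 0.05. Single libraries were left out only from groups of 2. Those of W303 at 4 h and the RNA-seq library of untreated eS7A-WT were therefore never left out. The mRNA differences at 0 h and the differences of mRNA and TE changes thus always rest on that 1 untreated eS7A-WT library. With 1 replicate left out, the counts ranged from 245 to 677 in mRNA, 203 to 639 in footprints, 12 to 30 in TE, 120 to 265 and 3 to 19 for the differences of mRNA and TE changes, and 343 to 903 at 0 h. The share of higher mRNA calls at 4 h (53.2%) was 66.7% with DESeq2, 62.8% with relative log expression factors, 61.9% with TMM over all libraries, 67.8% without RNA-seq replicate 1 of untreated W303 and 39.9% with the newer method. Of the footprint calls (63.0%) it was 49.0% without TMM and 42.1% with the newer method.

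W303 had a single library per assay at 4 h, so the compared groups share fewer than 2 replicate numbers and could not be paired. Deviations of same-numbered profiling libraries of eS7A-WT at 4 h correlated at 0.47 to 0.52 with those of the other eS7A profiling groups and at 0.06 with untreated W303, and those of RNA-seq at −0.34 to 0.18 with the other RNA-seq groups. A replicate block over both assays or within each assay gave 904 or 1439 mRNA calls, 708 or 1140 footprint calls, 50 or 284 TE calls (16 or 228 of them higher, against 4 of 16), 372 or 752 differences of mRNA changes, 28 or 60 of TE changes and, at 0 h within each assay, 1478. The blocked fits kept all 534 mRNA calls. Of list counts, cytosolic heat shock genes called in mRNA went from 7 to 15 and drug resistance genes called in footprints from 9 to 4 without TMM, and trehalose and glycogen genes called in footprints from 6 to 3 without profiling replicate 2 of eS7A-WT at 4 h.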

Other observations

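Some functions not described above also held called genes at 4 h, when 5.14% of all genes were called higher and 4.52% lower in mRNA. Of 10 histone genes, 3 were called higher in eS7A-WT in mRNA and none in footprints. The footprint differences were all positive, however, with a median of 0.60 against 0.36 in mRNA. The mRNA of HTA2, a histone H2A gene, stood at 13.4 cpm in W303 and at 28.99 and 26.7 cpm in eS7A-WT (1.05 ± 0.20, adjusted p = 0.00058 by edgeR). Of 27 cell cycle genes, 4 were higher and 1 lower, among them the mitotic cyclin gene CLB2 (0.83 ± 0.13, adjusted p = 8.5e-05) and the transcription factor gene SWI5 (0.59 ± 0.11, adjusted p = 0.00069), neither of which was called without TMM scaling (adjusted p = 0.0967 and 0.279). CHS2, which encodes the chitin synthase of the primary septum, was 1 of 2 higher genes among 47 cell wall genes, with 62.8 cpm in W303 and 118 and 132 cpm in eS7A-WT (1.00 ± 0.12, adjusted p = 2.3e-06).

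Of 22 purine synthesis genes, 4 were higher and 2 lower. IMD2, an inosine monophosphate dehydrogenase gene, had 55.1 cpm in W303 and 109.7 and 116 cpm in eS7A-WT (1.03 ± 0.15, adjusted p = 2.1e-05), whereas ADE17, of the last steps of inosine monophosphate synthesis, was lower (−0.74 ± 0.13, adjusted p = 8.8e-05, but 0.023 without TMM scaling). Among 39 oxidative stress genes only FLR1, a drug transporter gene, was called (0.91 ± 0.14, adjusted p = 4.3e-05, but 0.108 without TMM scaling), and among 65 genes of mitochondrial ribosomal proteins 2 were higher and 1 lower, with a median of −0.06.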
